A study of Mus musculus with 64 samples.

Results

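Hjurp carried 35 insertions of the PiggyBac (PB) transposon in 20 of 42 PB samples, and 2 insertions of the Sleeping Beauty (SB) transposon in 2 of 22 SB samples. The insertions were found by position, on chromosome 1 from 88258856 to 88277579 of the mm10 (GRCm38) mouse genome, and they made up 37 of 385883 deposited lines and 37 of the 299625 insertions kept in all samples. The gene was selected on these measured values, namely its many PB insertions and its near absence in SB, so both are given as a description without a test. If SB insertions fell evenly on the motifs of chromosome 1, 0.498 would have been expected in the gene. The 2 found are therefore not a shortage. The samples came from 64 mice, of which 42 carried PB (30 tumour and 12 tail samples) and 22 carried SB (11 tumour and 11 tail samples). The tumours were diffuse large B cell lymphomas, with tissue labels such as LN, SPLEEN or MES MASS, and tail tissue of other mice was the control.

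All mice belonged to ITP lines, which hold many transposon copies side by side on 1 chromosome, and had a mixed background of 3 strains, among them C57BL/6 and FVB. In the PB mice the transposase was expressed from the Rosa26 PB allele, which is constitutive, and their genotype is labelled IMPB. In the SB mice, labelled IMSB, animals with the constitutive Rosa26 SB allele and Blm m3/m3 had been crossed with the lines ITP1-C or ITP2-M, also on Blm m3/m3. The Blm genotype of the PB mice and the ages of all mice are not given in the sources used here. Since both transposases are active in the whole body, the tails also hold insertions, and each sample is a mixture of cells with different insertions.

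HJURP is the chaperone that binds the centromeric histone H3 variant CENP-A and places it on centromeres after cell division, together with the Mis18 complex. Cells need it to keep their centromeres through successive divisions. PB inserts its cargo at the motif TTAA and is known to favour open chromatin near transcription starts, while SB inserts at TA with less preference for genes. An insertion is counted here once per sample and motif, and its reads are those of the PCR products across the junction of transposon and genome. These reads carry no molecular identifiers, so they are not independent molecules and give no direct count of cells.

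Hjurp (RefSeq transcript NM_198652) lies on the minus strand, so its start is at 88277579, and it has 8 exons. It holds 71 TTAA and 828 TA motifs. The last exon spans 7803 bases, and its 3′ UTR, from 88258856 to 88265180, overlaps the end of Mroh2a, a gene on the plus strand. PB insertions were found at 20 of the 71 TTAA motifs. The stretch of the second intron that held the 2 most shared sites is shown because it held 12 of the 35 PB insertions. It is chr1:88276781-88277080 (mm10, plus strand), with the 3 TTAA motifs that received an insertion in capitals:

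second intron: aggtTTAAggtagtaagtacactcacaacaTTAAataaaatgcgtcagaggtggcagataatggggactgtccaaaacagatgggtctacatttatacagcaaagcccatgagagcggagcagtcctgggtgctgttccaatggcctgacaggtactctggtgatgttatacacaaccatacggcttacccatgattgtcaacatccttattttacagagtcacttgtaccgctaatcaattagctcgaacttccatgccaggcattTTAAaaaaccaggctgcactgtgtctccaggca

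The other sites shared by several samples, and the site with the most reads, are shown with 13 bases on either side of the motif (plus strand, motif in capitals). They lie at chr1:88277381-88277410 (first coding exon), chr1:88276578-88276607 (second intron), chr1:88264082-88264111 and chr1:88260945-88260974 (3′ UTR), and chr1:88272553-88272582 (intron 4, most reads), in this order:

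exon 1: atcagccgcttcaTTAAcgtctggaagcgg
intron 2: agtttctgcttatTTAAaatgcttacccaa
3′ UTR, outside Mroh2a: agcaagacaggctTTAAagacaaagtagca
3′ UTR, in Mroh2a: tgggacttttcttTTAAaaaggaatagaat
intron 4: ataacttatgtttTTAAaaatactgcttag

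Of the 20 hit sites, 7 read TTTAAA, that is with a T before and an A after the TTAA (35.0%), against 12 of all 71 TTAA of the gene (16.9%) and 16.4% of the TTAA of chromosome 1. The TTTAAA string is its own reverse complement, so both strands give the same count, and every match overlaps its TTAA. This is a description of 20 sites in 1 gene.

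The PB tumours held 25 Hjurp insertions in 13 of 30 samples, and the PB tails 10 in 7 of 12. Per sample there were between 0 and 4 in tumours (median 0, mean 0.833 ± 1.21, SD, n = 30) and between 0 and 3 in tails (median 1, mean 0.833 ± 0.937, SD, n = 12). Among tumours, 17 samples had none, 6 had 1, 4 had 2, 1 had 3 and 2 had 4. Among tails, 5 had none, 5 had 1, 1 had 2 and 1 had 3. The groups overlapped over almost their whole range. Per 1000 insertions of a sample the values were 0.115 ± 0.152 in tumours and 0.194 ± 0.234 in tails (SD). With at least 10 reads per insertion, the mean number per sample was 0.367 in tumours and 0.583 in tails.

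The 2 SB insertions were those of SB tumour 4 (63 reads, minus strand, 3′ UTR) and SB tail 7 (25 reads, plus strand, second intron). The other 10 samples of each SB group had none. If insertions fell on motifs of chromosome 1 evenly, 0.829 insertions would have been expected in Hjurp over the PB tumours, 0.246 over the PB tails, 0.239 over the SB tumours and 0.259 over the SB tails. Observed over expected insertions were thus 30.1 in PB tumours, 40.7 in PB tails, 4.18 in SB tumours and 3.86 in SB tails, the last 2 on 1 insertion each. With the insertion rate of the 1 Mb on either side in place of the chromosome's, the values in PB were 15.8 in tumours and 17.3 in tails. Of 22541 RefSeq genes with a TTAA, 73 (0.324%) reached the value of Hjurp in PB tumours and 97 (0.430%) in PB tails, Hjurp included, while the median gene stood at 0.725 and 0. Genes with a similar expected number had a median of 1 insertion in PB tumours and of 0 in PB tails. Of 23859 RefSeq genes with a TA, 1347 (5.65%) reached the value of Hjurp in SB tumours and 1201 (5.03%) in SB tails.

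**Figure D1:**
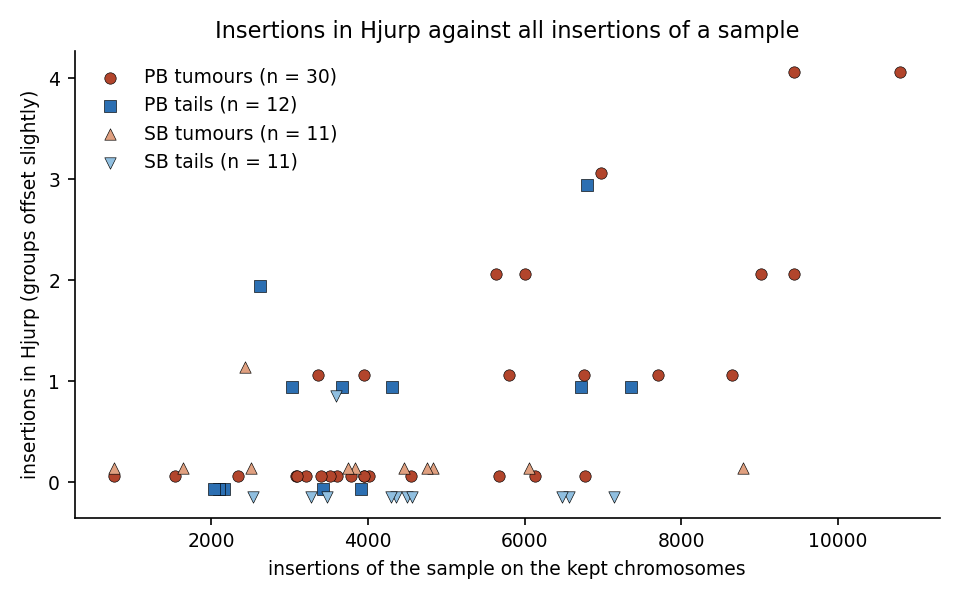
Insertions in Hjurp (y axis) against all insertions of the sample on the kept chromosomes (x axis), 1 point per sample, with the groups offset slightly in height. The 2 PB tumours with 4 insertions had 9447 and 10800 insertions in all, and 20 of 22 SB samples lie at 0.

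PB tumours with more insertions overall had more in Hjurp. A sample's total counts the insertions of every gene, and the relation was not computed for other genes. It therefore cannot be called particular to Hjurp. The 13 PB tumours with a Hjurp insertion had between 3360 and 10800 insertions in all (median 6975), and the 17 without had between 757 and 6769 (median 3602). Over the 30 PB tumours, Hjurp insertions followed the total with Pearson's r = 0.76 (permutation test, p = 1e-05, the smallest that the resamples can give, adjusted p = 5e-05) and Spearman's rho = 0.71 (permutation test, p = 3e-05, adjusted p = 0.00015), with 5 relations computed in this family. Without the 2 tumours farthest from the median total, r was 0.66. Within the 22 tumours whose names were written in joined form r was 0.79 (permutation test, p = 6e-05, rho = 0.77, p = 7e-05), and within the 8 with separated names 0.56 (permutation test, p = 0.195, rho = 0.51, p = 0.249).

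In the 12 PB tails the relation did not pass the test, with r = 0.53 (permutation test, p = 0.0684, adjusted p = 0.114) and rho = 0.55 (permutation test, p = 0.0684). Without the 2 tails farthest from the median r fell to 0.29, so the value rests on them. In the 7 tails with separated names r was 0.65 (permutation test, p = 0.121, rho = 0.45, p = 0.316). It turned to -0.54 without the 2 farthest of them, so its direction rests on those samples. For the 5 tails with joined names no value was computed.

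PB tumours and PB tails were compared over all genes by edgeR's quasi-likelihood test, in which a sample's insertions in all took the place of the library size. For Hjurp the log2 difference of tumours over tails was -0.36 ± 0.51 (SE), and edgeR's Benjamini-Hochberg adjusted p was 0.756. Of 3371 genes tested, 142 were called (4.21%), and Hjurp was not among them. Within joined names the log2 difference was 0.27 ± 0.81 (SE) and within separated names -1.27 ± 0.83 (SE), both not called. The share of samples with an insertion, 43.3% of tumours and 58.3% of tails, did not pass Fisher's exact test (two-sided, p = 0.499), and was lower in tumours within joined names (45.5% and 60.0%, exact p = 0.648) and separated names (37.5% and 57.1%, exact p = 0.619). P-values measure the spread between mice, of which each gave 1 sample.

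**Figure D2:**
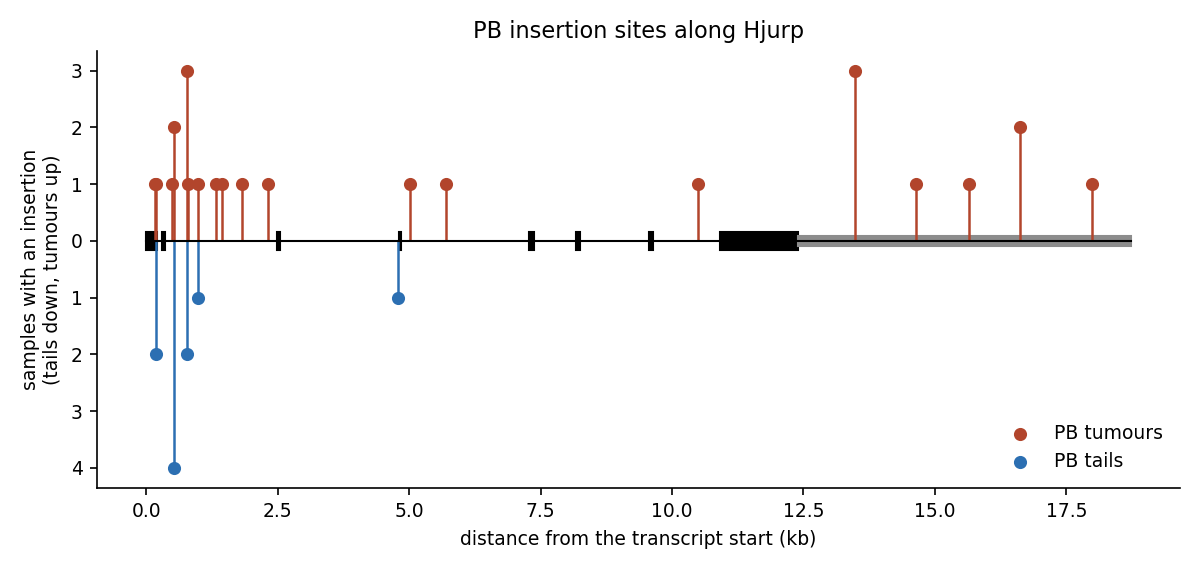
PB insertion sites along Hjurp, with the distance from the transcript start in kb (x axis) and the number of samples with an insertion at each site (y axis, tumours up, tails down). Black boxes are coding exons including the short 5′ UTR, the grey box is the 3′ UTR. Tail insertions lie within the first 1 kb except for 1, and 8 tumour insertions lie in the 3′ UTR.

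The insertions were spread unevenly over the gene. The first 1 kb from the start holds 8 TTAA motifs, and 7 of them were hit, by 10 of 25 tumour insertions (40%) and 9 of 10 tail insertions (90%). These came from 8 tumours and 7 tails. In the other 8126 genes of 10 to 40 kb, the first 1 kb held 3.26% of TTAA motifs and received 10.5% of tumour and 14.2% of tail insertions. In Hjurp it held 11.3% of the motifs, so its larger share of insertions has to be read against its larger share of motifs. The 3′ UTR, with 16 TTAA over 6.325 kb, received 8 tumour insertions in 7 tumours at 5 sites, and none of the tail insertions. The 47 TTAA between the 3′ UTR and the first 1 kb received 7 tumour insertions in 7 tumours, and 1 tail insertion.

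In the first exon, the site at 88277394 carried an insertion in PB tumour 3 (9 reads), PB tail 8 (8 reads) and PB tail 12 (35 reads), and the site at 88277423 in PB tumour 23 (5 reads). Both lie in coding sequence, 185 and 156 bases from the start. The second intron, of 2.121 kb with 14 TTAA, held 12 tumour insertions in 7 tumours and 7 tail insertions in 6 tails, and thus 19 of the 35. No insertion of any group lay in exons 2 to 7.

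**Figure D3:**
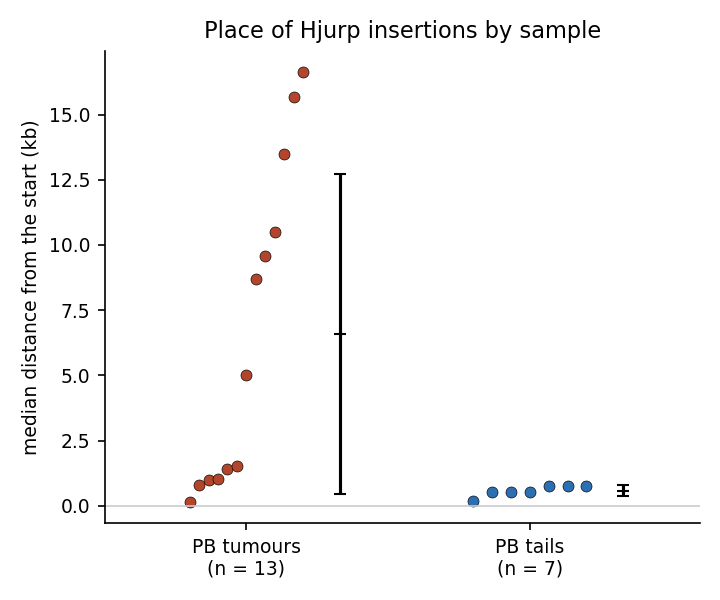
Median distance of a sample's Hjurp insertions from the transcript start in kb, 1 point per PB sample with an insertion, with the mean and SD beside each group. All 7 tails lie at or below 768 bases, and 12 of 13 tumours lie above them.

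A sample's insertions were farther from the start in tumours. The median distance of a sample was between 156 and 16621 bases in the 13 tumours with an insertion (median 5013, mean 6574 ± 6132, SD), and between 185 and 768 bases in the 7 tails (median 531, mean 582 ± 211, SD). PB tumour 23 lay below all tails at 156 bases, and the other 12 tumours exceeded the highest tail. The difference of 5992 bases passed an exact permutation test (two-sided, p = 0.00181). This comparison was chosen after the positions had been seen. The direction was not particular to Hjurp. In the other genes of 10 to 40 kb, the first 1 kb also took a larger share of tail (14.2%) than of tumour insertions (10.5%). With at least 10 reads the difference of means was 4853 bases (exact permutation test, p = 0.0278, 7 tumours and 5 tails). Without the part shared with Mroh2a it was 3462 bases (exact permutation test, p = 0.0153, 11 tumours and 7 tails). The medians there were closer, at 1042 bases in tumours and 531 in tails. Within joined names the difference of means was 7340 bases (exact permutation test, p = 0.00699, 10 tumours and 3 tails), and within separated names 1427 bases (exact permutation test, p = 0.514, 3 tumours and 4 tails). The part of depth in it was not tested. The tumours with an insertion had a median of 6975 insertions in all, and the tails 4301.

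The 3′ UTR insertions can belong to either gene. In the stretch that Hjurp shares with Mroh2a, a gene of HEAT repeats, 4 tumours had an insertion: PB tumour 3 (1177 reads), PB tumours 7 (3 reads) and 15 (5 reads) at 1 site, and PB tumour 16 (9 reads). The authors' gene column names Mroh2a for all 4. The remaining 4 lay outside Mroh2a, in PB tumour 8 at 2 sites (12 and 2 reads), PB tumour 11 (10 reads) and PB tumour 18 (16 reads), of which 3 shared the site at 88264095. All 3 insertions at this site were on the plus strand.

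Several sites were hit in more than 1 mouse. Of the 20 Hjurp sites, 6 occurred in at least 2 PB samples (30.0%), against 8385 of 195142 PB sites (4.30%). At least 3 samples shared 4 of them (20%, against 0.564%), and at least 5 shared 2 (10%, against 0.0384%). These shares are a description, since the gene was selected on its number of insertions. Of the 6 shared sites, 4 lay in the first 1 kb, 4 occurred in both tumours and tails, and 2 held an insertion of PB tumour 3. Without this tumour, which has 5721832 reads against 315376 in the next PB sample, 6 sites remained shared.

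The site at 88277048, 531 bases from the start, was hit in 6 samples. They were PB tail 2 (37 reads), PB tail 4 (27 reads), PB tail 7 (32 reads), PB tail 9 (2 reads), PB tumour 11 (15 reads) and PB tumour 20 (2 reads). Tails made up 4 of the 6, and 5 of the insertions were on the plus strand, the exception being PB tumour 11. The site at 88276811, 768 bases from the start, was hit in PB tumour 3 (382 reads), PB tumour 15 (8 reads), PB tumour 21 (4 reads), PB tail 3 (3 reads) and PB tail 8 (54 reads). All 5 were on the minus strand. The site at 88276591 was hit in PB tumour 11 (3 reads, plus strand) and PB tail 7 (146 reads, minus strand). With at least 10 reads, 3 sites were shared.

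**Figure D4:**
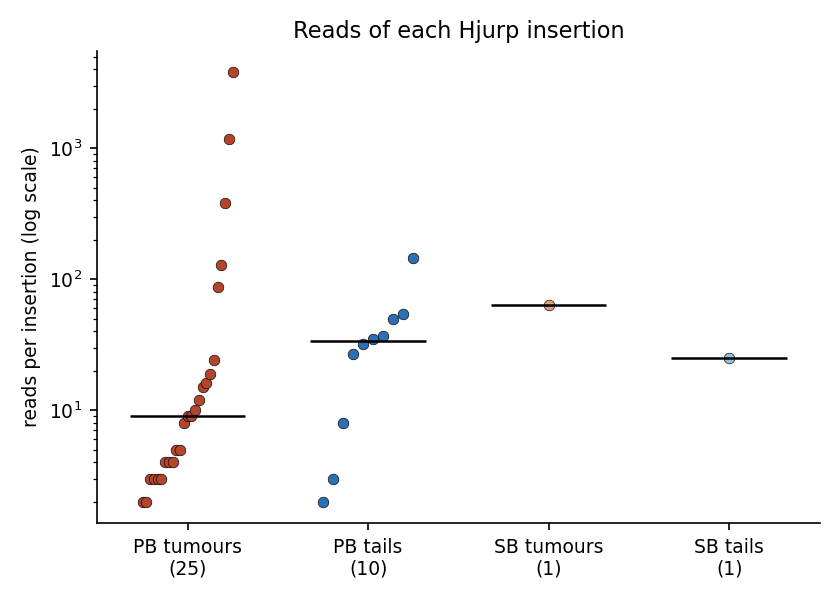
Reads of each Hjurp insertion on a log scale, by group, with a line at the median and the number of insertions in brackets. Tumour insertions run from 2 to 3803 reads, tail insertions from 2 to 146.

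Tumour insertions spanned a wider range of reads. They had between 2 and 3803 reads (median 9), with 14 of 25 under 10 reads, and tail insertions between 2 and 146 (median 33.5), with 3 of 10 under 10. The highest was in intron 4 of PB tumour 24, labelled MES LN, on the plus strand 5013 bases from the start. It had 3803 reads, 2.17% of the reads of the sample, and ranked at place 14 among its 5796 insertions. The next was in the 3′ UTR of PB tumour 3, with 1177 reads, but these were 0.0206% of that sample's reads, at place 176 of 10800. The highest tail insertion, that of PB tail 7 with 146 reads, held 0.108% of its sample and place 71 of 2625. Only PB tumours 3 and 24 had insertions with more reads than this, so the wider range rests on them. PB tumour 3 had 5721832 reads in all.

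The share of a sample's reads on Hjurp was 0.0779 ± 0.395% in tumours (SD, n = 30, median 0) and 0.0237 ± 0.0395% in tails (SD, n = 12, median 0.00224%). The difference did not pass a two-sided permutation test (p = 0.603). It rested on PB tumour 24. Without it the tumours had 0.00586 ± 0.0107%, less than the tails (permutation test, two-sided, p = 0.0407), an alternative chosen after the values had been seen. On ranks the tumours were also lower (permutation test, p = 0.247).

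On the plus strand lay 21 of the 35 PB insertions (60.0%, 95% Wilson interval 43.6 to 74.4%, which covers counting error only). In tumours 16 were on the plus and 9 on the minus strand, in tails 5 and 5. Hjurp is transcribed from the minus strand, and how the deposited orientation relates to that of the cargo is not given in the sources used here. Within the first 1 kb the strands were even, with 5 and 5 in tumours and 5 and 4 in tails.

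**Figure D5:**
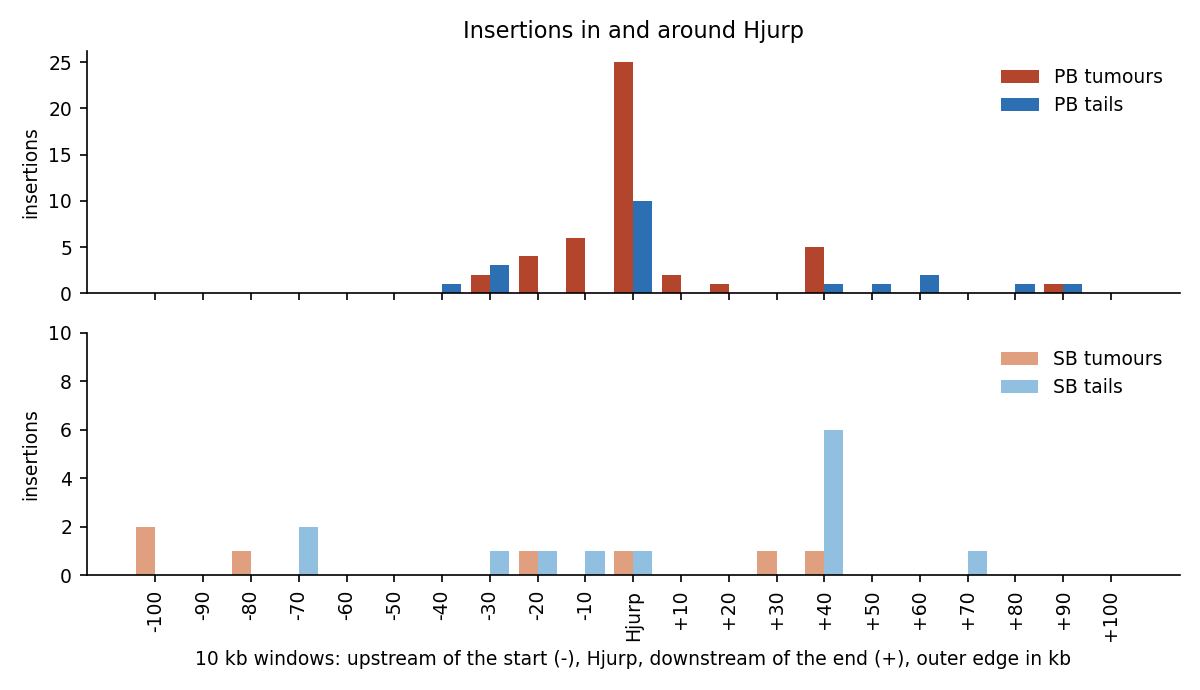
Insertions in windows of 10 kb on either side of Hjurp and in the gene, for PB (top) and SB (bottom), with tumours and tails apart. The gene (18.724 kb) holds 25 tumour and 10 tail insertions in PB, and the next window upstream 6 and 0.

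PB insertions were also found outside the gene, at lower numbers. The nearest PB insertion upstream of the start was 334 bases away (PB tumour 11, 3 reads), and the nearest downstream of the end 5036 bases away (PB tumour 24, 22 reads). The 10 kb upstream held 6 tumour insertions in 5 tumours at 61 TTAA, and the 10 kb downstream 2 in 2 tumours at 25 TTAA, with none in tails. The window from 10 to 20 kb upstream held 4 tumour insertions and none of tails, and that from 20 to 30 kb upstream 2 tumour and 3 tail insertions. Between 30 and 100 kb upstream, where Trpm8, a cold-sensing ion channel gene, lies, a single PB insertion was found, in 1 tail. The 10 kb window that begins 30 kb downstream of the end held 5 PB tumour insertions in 3 tumours, and 1 in tails. For SB, the nearest insertions were 4941 bases upstream and 22175 bases downstream. The same downstream window held 1 SB tumour insertion, and 6 SB tail insertions in 3 tails, more than Hjurp itself held in SB.

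Genes overlapping the 100 kb on either side differed from Hjurp in their numbers. Mroh2a had 8 PB tumour insertions in 8 tumours against 0.911 expected, 4 of which are also Hjurp insertions, and none in tails. Trpm8 had 0 PB tumour insertions against 4.44 expected and 1 in tails. The overlapping genes of the Ugt1a cluster, which encode enzymes that conjugate glucuronic acid, were Ugt1a1, Ugt1a2, Ugt1a5, Ugt1a6a, Ugt1a6b, Ugt1a7c, Ugt1a8, Ugt1a9 and Ugt1a10. They share exons and insertions, and the longest, Ugt1a10, had 11 PB tumour insertions against 11.0 expected and 12 in tails against 3.27. Dnajb3, a small gene inside the cluster with 7 TTAA, had 2 tail insertions against 0.0242 expected and none in tumours, so its observed over expected in tails (82.5, on 2 insertions) was above that of Hjurp.

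The genes of CENP-A deposition and the inner kinetochore mostly had lower observed over expected values than Hjurp, like nearly all genes. Of all genes with a TTAA, 0.324% reached Hjurp in PB tumours and 0.430% in PB tails. Lying below Hjurp therefore does not set the list apart. Of 25 genes, 23 lay on the kept chromosomes, 19 of them had a PB tumour insertion, 12 a PB tail insertion and 7 an SB insertion. Over all 22541 genes with a TTAA, 14400 had an insertion in at least 1 PB sample. The median observed over expected of the 23 was 1.53 in PB tumours and 1.07 in PB tails, against 0.725 and 0 over all genes. In PB tumours 1 of the 23 was above Hjurp, namely Cenpb, a binder of centromeric DNA with 2 TTAA and 1 insertion (42.5), and none was in PB tails. Cenpp, a long gene of the inner kinetochore, also had 25 tumour insertions, but against 18.1 expected. Cenpa, the histone that HJURP carries, had 2 insertions in tumours and 1 in tails. Mis18a, which helps to prepare centromeres for new CENP-A, had 0 and 1, and Oip5, its partner, had 1 and 0. Cenpo, a subunit of the inner kinetochore, had 6 against 0.816 expected in tumours and 2 against 0.25 in tails. Only 5 members reached 10 insertions for edgeR's test, and 0 of 5 were called in either direction by adjusted p, where 4.21% of all tested genes were. None of the 5 had an unadjusted edgeR p under 0.05, against 656 of all 3371 tested genes. So few tested members do not set this list apart.

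Among histone chaperones none was above Hjurp in either group. Few genes of any kind were: 0.324% of all genes with a TTAA reached Hjurp in PB tumours and 0.430% in PB tails. This count therefore does not set the list apart. Of 15 genes, 14 were on kept chromosomes, 12 had a PB tumour insertion and 6 a PB tail insertion. Over all 22541 genes with a TTAA, 14400 had an insertion in at least 1 PB sample. The median observed over expected of the list was 2.75 in tumours and 0 in tails, against 0.725 and 0 over all genes. Asf1a, a chaperone of histones H3 and H4, had 10 insertions in 6 tumours against 1.42 expected, and 1 in tails. Of 4 genes that edgeR tested, 0 were called in either direction by adjusted p, against 4.21% of all tested genes, and none had an unadjusted p under 0.05, against 656 of all 3371. With so few genes tested, these counts do not set the list apart.

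The genes whose insertions per 1000 were distributed most like those of Hjurp over the 42 PB samples, among 3370 genes with at least 10 insertions, were Arrdc3 (Spearman's rho 0.57), Gm20757 (0.55), Ube3a (0.55), Phactr4 (0.51) and Ninj2 (0.50). Arrdc3 had insertions in 8 samples, all 8 shared with Hjurp, and Ube3a in 18, of which 15 were shared. These values are a description, and the points share the depth of their samples.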

How the data were processed

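Transposon junctions of 64 mice were sequenced by splinkerette PCR (QiSeq). For each insertion the authors deposited a raw, unnormalized count of reads, besides a position on mm10 and a strand. Aligner, caller and read filters are not given in the sources used here. A further per-sample column (1), coverage scaled within a sample, was not used.

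Each position was snapped to a motif at most 5 bp away, TTAA for PB and TA for SB, and lines of a sample on 1 motif were joined. Sex chromosomes and donor chromosome 14 were left out. Genes were curated RefSeq transcripts of GRCm38, and sequences were read from that genome. Samples had between 55502 and 5721832 reads and between 757 and 10800 insertions, so a gene of few motifs is often missed. Sample names come in a joined and a separated form, which can mark a batch.

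PB tumours and PB tails were compared with edgeR's quasi-likelihood test (at least 10 insertions over the PB samples, adjusted p under 0.05, Benjamini-Hochberg), Fisher's exact test, and two-sided permutation tests (100000 resamples, exact where a group had under 10 samples). Named genes are the 5 most like Hjurp in their distribution over PB samples, all within 100 kb, and members of 2 lists. In the lists, 2 members of the first and 1 of the second lay off the kept chromosomes, and the values of 1 further member are not reported here. Hjurp and the lists were chosen with earlier results of these data known. Alternatives covered read minimum, normalization, filter, expected rate and name form. The tests ran with R 4.3.3, edgeR 4.0.16, DESeq2 1.42.0, Python 3.11.15, numpy 2.4.6, pandas 2.3.3 and scipy 1.17.1.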

Additional observations from a re-analysis of the deposited data

How the results depend on the processing

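The SD between samples was close to or larger than the mean for the insertions per sample and for observed over expected, so that staying within it says little. With at least 10 reads the mean of PB tumours went from 0.833 to 0.367. With the rate of 1 Mb on either side, observed over expected was 15.8 in PB tumours and 17.3 in PB tails, and with 1 insertion per sample at most 15.7 and 28.5. The edgeR difference of PB tumours and tails was not called under any alternative, with log2 values from -1.27 (separated names) to 0.27 (joined names, the one change of direction). The number of genes called was 142, and 73 with DESeq2, 70 without the filter, 28 within joined and 30 within separated names, where fewer samples entered. With TMM, 131 of 177 called genes were higher in tumours, against 68 of 142. The difference in the share of reads changed direction on ranks (-4.61 ranks), within joined names (-0.00757 percentage points) and without PB tumour 24 (-0.0179). The difference in distance was 1427 bases and did not pass within separated names, and the correlation with the total in tumours was 0.56 there, with 8 tumours. With at least 10 reads, 3 sites were shared in place of 6. The causes were not tested. No paired analysis was possible because the replicate numbers only follow accession order and tumours and tails are different mice.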
